A study of Homo sapiens with 12 samples.

Results

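The mitochondrial ribosomal protein genes are the nuclear genes that encode the protein subunits of the ribosome inside mitochondria. They were taken as every protein-coding gene of the count table whose symbol is MRPL or MRPS followed by digits, with an optional A, B or C, and pseudogenes were left out. The rule found 78 genes among the 60664 of the table, 49 of the large subunit (MRPL) and 29 of the small subunit (MRPS). A single table of read counts from poly(A) RNA covers 12 libraries, 3 in each of 4 groups. TOM-1 and RS4;11 are human B-cell acute lymphoblastic leukaemia lines, TOM-1 with the Philadelphia chromosome and RS4;11 with a rearrangement of KMT2A. Both are labelled wild type and grew in RPMI with fetal bovine serum, and each was kept for 24 h in control culture or with ADI-PEG20 at 1000 ng/ml. ADI-PEG20 is arginine deiminase coupled to polyethylene glycol, which turns the arginine of the medium into citrulline, and the title of the series concerns loss of the arginine-making enzyme ASS1 in leukaemia with the Philadelphia chromosome. Nothing in the labels says whether replicates came from separate cultures, so p-values measure only the spread between these libraries, which may be technical.

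The mitochondrial ribosome translates the few messenger RNAs of the mitochondrial genome, all of which encode subunits of the respiratory chain and the ATP synthase. Its ribosomal RNAs come from mitochondrial DNA, whereas its proteins are made in the cytosol and imported. Some of these proteins have counterparts in the bacterial ribosome, and others are particular to mitochondria, where they take the place of lost ribosomal RNA or anchor the ribosome to the inner membrane. The small subunit holds the decoding centre, and the large subunit holds the peptidyl transferase centre and the tunnel through which the new protein leaves. Symbols do not always give the subunit: MRPS30 and MRPS18A are found in the large subunit, and MRPS36 is now known as a part of the 2-oxoglutarate dehydrogenase complex. By role, 30 of the MRPL genes have a bacterial counterpart and 19 do not. Of the MRPS genes, 16 have a bacterial counterpart, 11 do not, and MRPS18A and MRPS18B are counted apart as extra copies of MRPS18.

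The genes lie on 21 chromosomes. RefSeq promoter windows, from 250 bases before to 50 bases after each start on GRCh38.p14, were found for 69 of the 78. The letters CCGGAAG, bound by ETS factors such as GABPA, stood on either strand in the windows of 43.5% of these genes, against 16.5% of protein-coding genes and 12.2% of all genes with a window. AAGATGGCG, a YY1 motif, stood in 18.8%, against 3.21% of protein-coding genes and 2.14% of all genes. GCGCATGC, the core of the NRF1 motif, was found in 8.70% against 4.89% and 3.68%, and the E-box CACGTG in 13% against 10.9% and 8.77%. An ETS match can share its last 3 letters with the first 3 of a YY1 match. At least 1 of the ETS, YY1 and NRF1 motifs was held by 59.5% of the large and 55.6% of the small subunit genes. Shown here are the 80 bases before the start, 5′ to 3′ on the gene's strand and with the ETS motif in capitals, of 6 members that hold it there. They are the 3 that stood lowest and the 3 that stood highest in TOM-1 with ADI-PEG20, among 18 members with the motif wholly inside these bases. Only the most upstream start of each gene was used, and members on 1 chromosome were left out of this choice.
MRPL20, chr1:1407294-1407373, minus strand: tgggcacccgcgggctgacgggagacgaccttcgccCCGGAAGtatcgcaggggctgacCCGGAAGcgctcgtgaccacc
MRPS26, chr20:3045972-3046051, plus strand: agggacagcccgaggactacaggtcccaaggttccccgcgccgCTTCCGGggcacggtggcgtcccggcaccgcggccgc
MRPL27, chr17:50373185-50373264, minus strand: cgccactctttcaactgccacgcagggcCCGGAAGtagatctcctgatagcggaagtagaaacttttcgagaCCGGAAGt
MRPL47, chr3:179604647-179604726, minus strand: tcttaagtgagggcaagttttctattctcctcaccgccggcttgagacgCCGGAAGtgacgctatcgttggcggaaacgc
MRPS10, chr6:42217862-42217941, minus strand: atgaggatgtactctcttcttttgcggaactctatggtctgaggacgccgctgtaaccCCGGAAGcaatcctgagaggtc
MRPS31, chr13:40771191-40771270, minus strand: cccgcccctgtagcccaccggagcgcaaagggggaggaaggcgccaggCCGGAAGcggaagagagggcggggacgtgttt
These 6 members were chosen for holding the motif close to the start. The choice therefore fixed its presence in members lower with ADI-PEG20 in TOM-1 (MRPL20, MRPS26, MRPL27) and in the others (MRPL47, MRPS10, MRPS31). Whether the motif went with the change was not tested. A match is a description of these letters, not of a bound factor.

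The libraries held between 18958144 and 35956959 counts in all. A departing library was TOM-1 control replicate 3: it had reads in 14963 genes against 19857 to 21997, and cytosolic ribosomal protein genes took 19.7% of its counts against 5.88% to 9.85%. The main fit keeps it, and results are given with all 12 libraries and again without it. All 7 B-lineage markers had reads in each library, T-lineage and erythroid markers summed to at most 0.496 CPM (counts per 1000000 counts), myeloid markers to between 0.768 and 22.3 CPM, and HOXA9 was at 0 in TOM-1 and between 69.8 and 80.7 CPM in RS4;11.

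Of the 78 members, 77 passed the filter on low counts. MRPL53, which shares 45.2% of its exonic bases with CCDC142 on the same strand, had 0 counts in every library. MRPS24 passed the filter but stayed at or below 0.765 CPM in each library; 23.2% of its exonic bases are shared with the readthrough gene URGCP-MRPS24. How the counting treated reads shared by overlapping genes is not given in the sources used here, so the levels of the 26 members with at least 10% exonic overlap are uncertain. They include MRPL12, which shares 68.2% of its exonic bases with AC139530.2, and MRPS18A and MRPS18C, with 47% and 40.2% shared with genes on the opposite strand.

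Together the members took 0.365% and 0.356% of the counts in TOM-1 control replicates 1 and 2 and 0.551% in replicate 3. With ADI-PEG20 the share in TOM-1 was 0.321%, 0.324% and 0.314%. In RS4;11 it ran from 0.447% to 0.457% in control culture and from 0.411% to 0.419% with ADI-PEG20. Within each line every treated library had a lower share than every control library, and both RS4;11 groups stood above the TOM-1 libraries other than control replicate 3.

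Summed over the MRPL genes, CPM after scaling by TMM (a trimmed mean of the log ratios between libraries) came to 2389, 2296 and 4527 in TOM-1 control replicates 1, 2 and 3, and to 1896, 1904 and 1809 with ADI-PEG20. The MRPS genes summed to 1343, 1305 and 2229 in TOM-1 control and to 1112, 1149 and 1089 with ADI-PEG20. In RS4;11 the large subunit sum was 2756 ± 6.23 CPM (SD, n = 3) in control culture and 2508 ± 58.9 with ADI-PEG20, and the small subunit sum was 1770 ± 16.9 and 1600 ± 47.3. The sums separated by treatment in both lines without overlap, and replicate 3 of TOM-1 control held the highest sum of all 12 libraries. The ratio of the large to the small subunit sum was 1.78, 1.76 and 2.03 in TOM-1 control and 1.71, 1.66 and 1.66 with ADI-PEG20, so that in TOM-1 this ratio of sums was lower in each treated library. The ratio of the subunits' median levels per kilobase overlapped between the groups, from 1.13 to 1.48 in TOM-1 control and from 0.981 to 1.14 with ADI-PEG20. In RS4;11 the ratios of sums overlapped, between 1.54 and 1.57 in control culture and between 1.55 and 1.59 with ADI-PEG20. The ratios of median levels per kilobase overlapped there too, from 0.887 to 1.09 in control culture and from 1.03 to 1.11 with ADI-PEG20.

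**Figure D1:**
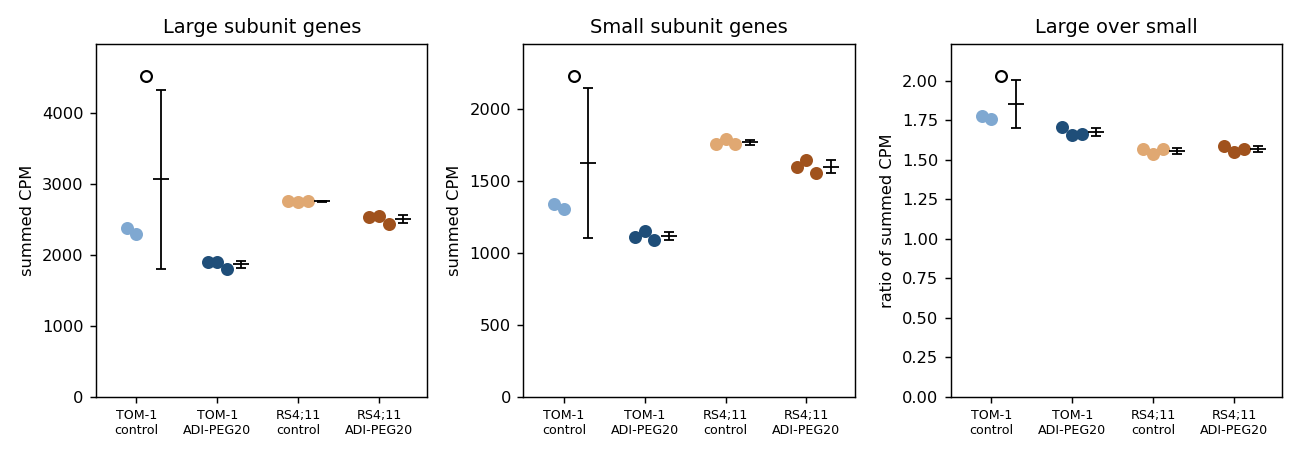
Summed CPM of the large subunit genes (left) and small subunit genes (middle), and the ratio of these sums (right), for each of the 12 libraries by group; filled points are libraries, the open point is TOM-1 control replicate 3, and bars are mean ± SD of 3 libraries. The treated libraries of both lines lie below their controls in both sums, and the open point is the highest at 4527 and 2229 CPM.

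ADI-PEG20 was compared with control in TOM-1, the line with the Philadelphia chromosome. Of the 77 tested members, 36 fell and 1 rose at an adjusted p under 0.05 (edgeR quasi-likelihood test, Benjamini-Hochberg adjustment over 17349 genes). The background was 15.9% of all tested genes lower and 15.9% higher. The median log2 fold change of the members was -0.63, against 0.05 for all tested genes, and 70 members were fitted lower. In 41 members each treated library stood below each control library, against a background of 20.1% of tested genes. In the fit without TOM-1 control replicate 3, 36 members fell and 9 rose, against backgrounds of 19.8% and 21.8%, and the median was -0.28 against 0.00. The calls of lower members had 35 of 36 in common; MRPS36 was called only with all 12 libraries and MRPL19 only without replicate 3. Among the 52 members without exonic overlap of at least 10%, 23 fell and 1 rose with all 12 libraries, and 23 fell and 8 rose without replicate 3, beside the same backgrounds. A fall of at least 2-fold was called for 22 members with all 12 libraries and for 7 without replicate 3. The share of all tested genes at that size is not given here, so these counts only describe the members. Level in bulk RNA is relative to all other transcripts of the library, so that fewer cells of a kind and less RNA per cell cannot be told apart.

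Both subunits held falling genes in like proportion. In the large subunit 22 of 48 tested genes fell and 0 rose, and in the small subunit 14 of 29 fell and 1 rose. By edgeR, 29 large and 20 small subunit genes had an unadjusted p under 0.05, against 7289 of all 17349 tested genes. The medians were -0.63 and -0.67, a large minus small difference of 0.04. Between single TOM-1 libraries of a group, replicate 3 included, the large minus small median deviation had an SD of 0.06. That SD is given for scale only, as it is not the error of a difference between fitted effects. The difference was above 0.06 with the replicate block (0.08), with voom (0.07) and with MRPS18A and MRPS30 counted as large (0.09). It was below 0 with length offsets (-0.05). In the fit without replicate 3 the counts were 23 lower and 3 higher in the large subunit and 13 lower and 6 higher in the small, with medians of -0.27 and -0.32. Counting MRPS18A and MRPS30 with the large subunit, where they sit, gave medians of -0.63 and -0.72. Among large subunit genes with a bacterial counterpart, 17 of 30 fell (median -0.83), and among those particular to mitochondria 5 of 18 fell (median -0.39). Without replicate 3 these classes had 18 lower and 2 higher (median -0.46), and 5 lower and 1 higher (median -0.15). The small subunit classes stood closer together, with 8 of 16 lower (median -0.72) and 6 of 11 lower (median -0.67). The 11 include MRPS30 and MRPS36, and MRPS36 was 1 of the 6, called only with all 12 libraries. Without replicate 3 both small subunit classes had a median of -0.34, with 8 lower and 3 higher, and 5 lower and 2 higher. Differences between these classes were not tested.

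**Figure D2:**
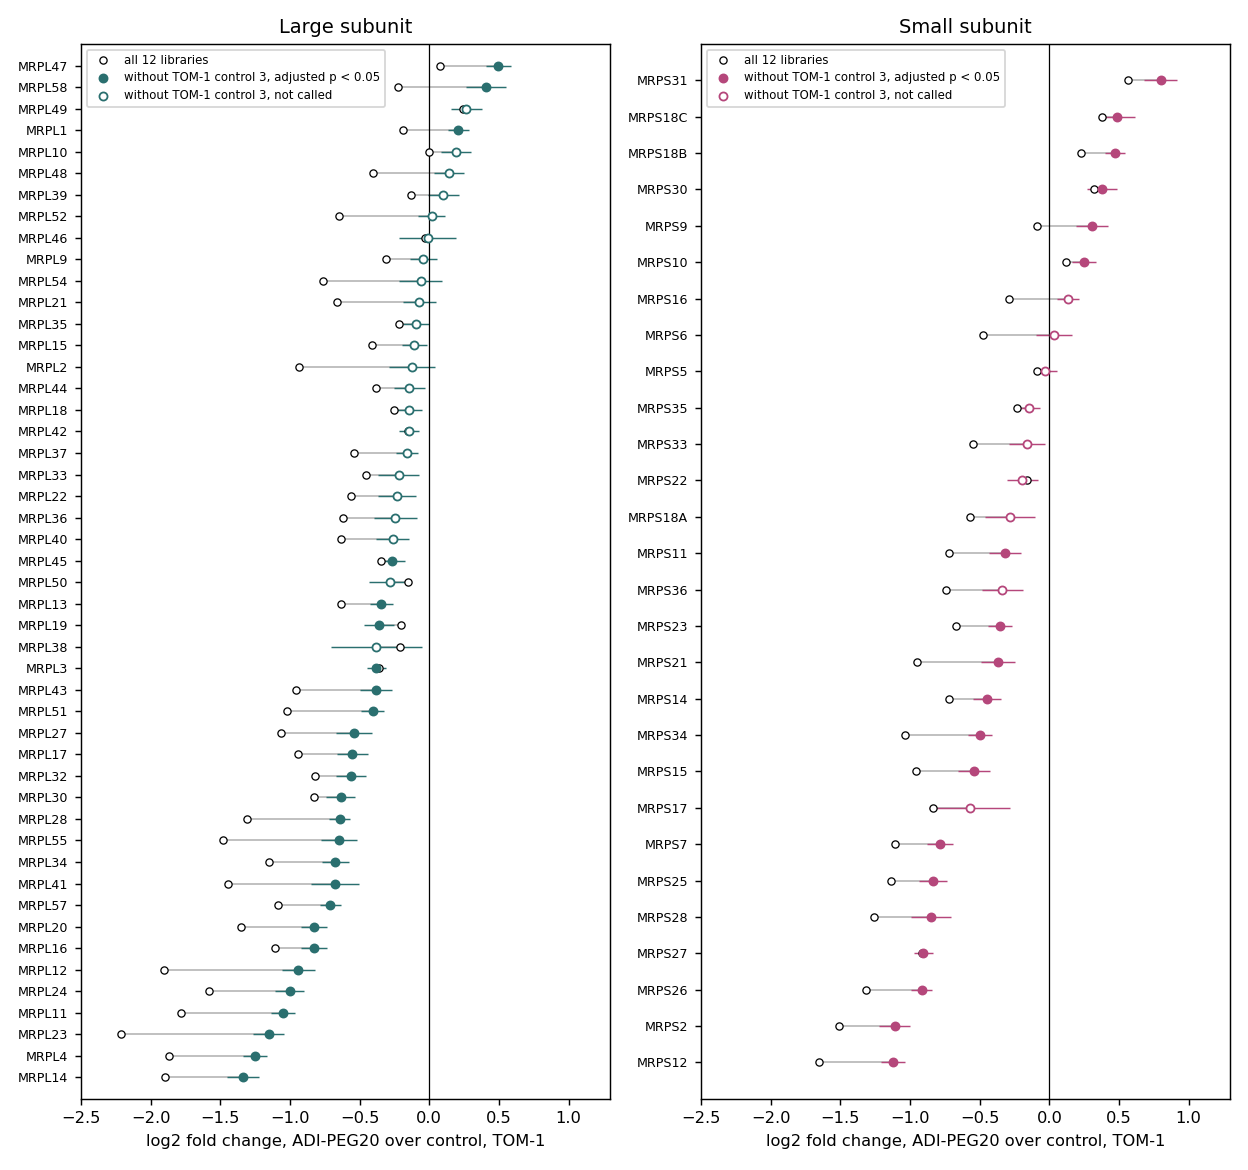
Log2 fold change with ADI-PEG20 in TOM-1 for 76 members (MRPS24, near 0 counts, is left out), large subunit left and small subunit right, ordered by the fit without TOM-1 control replicate 3 (coloured, bars are ± SE, filled where the adjusted p is under 0.05); open black points are the fit to all 12 libraries. Most coloured points lie left of 0 and most black points lie further left; MRPS31 is the highest in the small subunit and MRPL14 the lowest in the large.

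MRPL14 (ENSG00000180992), a protein at the face where the subunits meet, is encoded on chromosome 6, 44113454 to 44127457, minus strand, in GENCODE release 29 on GRCh38; positions of other genes are given likewise. It stood at 48.8, 48.2 and 118 CPM in TOM-1 control and at 18.5, 22.9 and 16.3 CPM with ADI-PEG20. Each treated library was below each control library, and replicate 3 was the highest. The log2 fold change was -1.90 ± 0.30 (SE; edgeR adjusted p = 0.00066), and -1.34 ± 0.11 without replicate 3 (edgeR adjusted p = 2.8e-09).

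MRPL4 (ENSG00000105364), a protein with an arm that reaches into the exit tunnel, lies on chromosome 19, 10251901 to 10260045, plus strand. Its levels were 63.1, 63.3 and 166 CPM in TOM-1 control and 28.5, 27.1 and 24.4 CPM with ADI-PEG20, without overlap. It fell by 1.87 ± 0.31 on the log2 scale, and by 1.25 ± 0.09 without replicate 3. MRPL23 and MRPL24 sit at the exit of the tunnel. MRPL23 stood at 35.2, 39.0 and 158 CPM in control culture and at 15.9, 18.4 and 15.7 CPM with ADI-PEG20. Its fall of 2.21 ± 0.46 became 1.15 ± 0.11 without replicate 3, in which it was 4.26 times the mean of the other control libraries, the largest such ratio of the 76 members with more than trace counts. MRPL24 fell by 1.58 ± 0.30, or by 1.00 ± 0.10 without replicate 3.

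The stalk that recruits translation factors is formed by MRPL12, on a base that includes MRPL11. MRPL12 (ENSG00000262814, chromosome 17, 81703357 to 81707526, plus strand) was at 36.5, 35.7 and 141 CPM in TOM-1 control and at 20.9, 19.7 and 16.1 CPM with ADI-PEG20. It fell by 1.90 ± 0.43 with all 12 libraries (edgeR adjusted p = 0.0058) and by 0.94 ± 0.12 without replicate 3; fitted on the 6 TOM-1 libraries alone the adjusted p was 0.059. MRPL11 fell by 1.78 ± 0.35, or by 1.05 ± 0.09 without replicate 3.

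In the small subunit the lowest was MRPS12, a protein of the decoding centre (ENSG00000128626, chromosome 19, 38930548 to 38933162, plus strand), which shares 16.3% of its exonic bases with SARS2 on the opposite strand. Its levels were 41.7, 41.3 and 97.3 CPM in TOM-1 control and 18.4, 19.3 and 19.5 CPM with ADI-PEG20. The groups did not overlap, and the log2 fold change was -1.65 ± 0.27, or -1.12 ± 0.09 without replicate 3. MRPS2 (71.5, 62.7 and 133 CPM against 33.5, 30.8 and 29.3), MRPS26 and MRPS28 followed, with log2 fold changes of -1.51 ± 0.24, -1.31 ± 0.22 and -1.26 ± 0.25. Without replicate 3 these were -1.11 ± 0.11, -0.91 ± 0.07 and -0.85 ± 0.14.

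MRPS27 (ENSG00000113048), a small subunit protein with pentatricopeptide repeats that is particular to mitochondria, had the smallest adjusted p of the members; it was singled out after its values were seen. It lies on chromosome 5, 72219409 to 72320646, minus strand. In TOM-1 control it stood at 116, 118 and 120 CPM, so that replicate 3 did not stand apart, and with ADI-PEG20 at 64.0, 65.7 and 58.0 CPM. The log2 fold change was -0.91 ± 0.10 (edgeR adjusted p = 5.0e-05) and -0.90 ± 0.07 without replicate 3. MRPL3, close to the peptidyl transferase centre, likewise did not depend on replicate 3: it stood at 127, 119 and 119 CPM in control culture and at 96.3, 90.0 and 98.0 CPM with ADI-PEG20. It fell by 0.36 ± 0.10 (edgeR adjusted p = 0.015) and by 0.38 ± 0.07 without replicate 3, and the call was lost without TOM-1 ADI-PEG20 replicate 2 (adjusted p = 0.057), with length offsets (0.056), with the 6 TOM-1 libraries alone (0.089) and with no filter (0.13).

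MRPL45, which ties the ribosome to the inner membrane, fell by 0.34 ± 0.11 with all 12 libraries (adjusted p = 0.037 by edgeR). The adjusted p rose above the threshold, to between 0.051 and 0.12, without TOM-1 ADI-PEG20 replicate 1, 2 or 3, RS4;11 control replicate 1 or RS4;11 ADI-PEG20 replicate 1. It was 0.21 with no filter and 0.14 with the 6 TOM-1 libraries alone. MRPL32, whose precursor is cut on import before it joins the ribosome, fell by 0.82 ± 0.18, MRPL30 by 0.83 ± 0.16, MRPL41 by 1.45 ± 0.39 and MRPS21 by 0.95 ± 0.30. Without TOM-1 control replicate 3 these falls were 0.56 ± 0.11, 0.63 ± 0.10, 0.68 ± 0.17 and 0.37 ± 0.12 (MRPL32, MRPL30, MRPL41 and MRPS21), each still called, and that of MRPL45 was 0.26 ± 0.09. The call of MRPL41 was lost without TOM-1 ADI-PEG20 replicate 3 (adjusted p = 0.062), and that of MRPS21 without TOM-1 ADI-PEG20 replicate 1, 2 or 3 (adjusted p from 0.066 to 0.083). MRPL44 and MRPS22 were not called, at -0.38 ± 0.18 and -0.16 ± 0.12, nor were MRPL36 and MRPL50, at -0.62 ± 0.25 and -0.15 ± 0.18; without replicate 3 these 4 were at -0.14 ± 0.11, -0.19 ± 0.11, -0.24 ± 0.15 and -0.28 ± 0.15, again not called. MRPL36 was called lower without TOM-1 control replicate 1 or 2 (-0.77 and -0.86, adjusted p = 0.047 and 0.016), and MRPL44 without TOM-1 control replicate 2 (-0.54, adjusted p = 0.042). MRPS16, a small subunit protein whose loss causes a respiratory chain disease, stood at 102, 98.1 and 204 CPM in control culture and at 112, 111 and 106 CPM with ADI-PEG20. Its fold change was -0.29 ± 0.23, and 0.13 ± 0.08 without replicate 3, and neither passed.

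MRPS31, a small subunit protein particular to mitochondria (ENSG00000102738, chromosome 13, 40729135 to 40771173, minus strand), was the member that rose with all 12 libraries. It stood at 21.5, 20.8 and 32.8 CPM in TOM-1 control and at 36.9, 36.4 and 37.4 CPM with ADI-PEG20, every treated library above every control library. The log2 fold change was 0.56 ± 0.18 (edgeR adjusted p = 0.029) and 0.80 ± 0.12 without replicate 3 (edgeR adjusted p = 7.2e-06). With all 12 libraries this call was close to the threshold: leaving out any of the other libraries, except RS4;11 ADI-PEG20 replicate 3, gave an adjusted p between 0.050 and 0.12, scaling with DESeq2 size factors gave 0.054, upper-quartile scaling gave 0.084, and the 6 TOM-1 libraries alone gave 0.15.

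A further 8 members rose without TOM-1 control replicate 3. MRPL47, a protein at the tunnel exit, stood at 32.8, 33.2 and 67.0 CPM in control culture and at 48.0, 45.4 and 46.4 CPM with ADI-PEG20. Its log2 fold change was 0.08 ± 0.23 with all 12 libraries and 0.50 ± 0.09 without replicate 3. MRPL58, a peptidyl-tRNA hydrolase that frees stalled ribosomes, stood at 22.1, 19.3 and 55.5 CPM in control culture and at 26.4, 33.4 and 22.8 CPM with ADI-PEG20, so that 1 library decides its direction. It went from -0.22 ± 0.32 with all 12 libraries to 0.41 ± 0.14 without replicate 3 (edgeR adjusted p = 0.026). MRPS30 was at 0.32 ± 0.13 and then 0.38 ± 0.11, and MRPS9, MRPS10 and MRPL1, outside the rule for named genes, rose by 0.31, 0.25 and 0.21 without it. MRPL49, the other high large subunit gene, passed in neither fit (0.25 ± 0.14 and 0.26 ± 0.11).

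The copies of MRPS18 differed in level and in direction of the fitted change. MRPS18C stood at 19.8, 16.7 and 22.8 CPM in TOM-1 control and at 25.2, 27.2 and 24.5 CPM with ADI-PEG20 (0.38 ± 0.14, edgeR adjusted p = 0.061). Without replicate 3 it rose by 0.49 ± 0.13. MRPS18B was the most abundant copy, with 67.0, 63.8 and 102 CPM in control culture and 88.5, 97.3 and 86.6 CPM with ADI-PEG20. It was at 0.23 ± 0.16, and rose by 0.47 ± 0.07 without replicate 3. MRPS18A, the copy found in the large subunit, was at 9.86, 14.9 and 20.7 CPM and then 9.50, 12.1 and 8.89 CPM, and was not called in these fits (-0.57 ± 0.23 and -0.28 ± 0.18), though it was without TOM-1 control replicate 1 (-0.84, adjusted p = 0.0073).

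**Figure D3:**
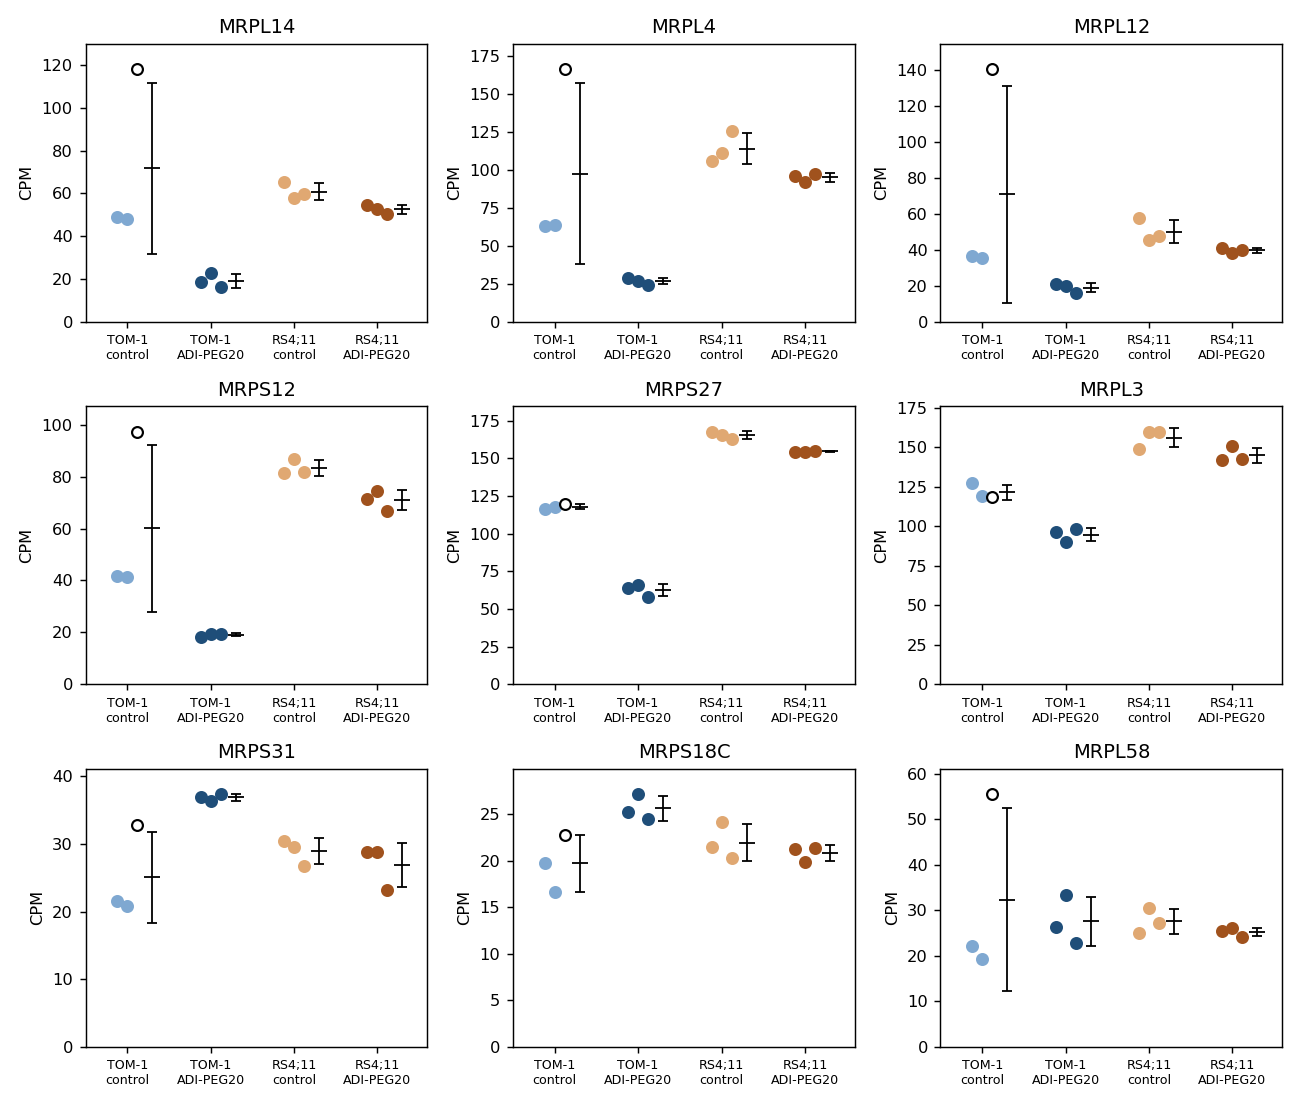
CPM of 9 members in each library by group; filled points are libraries, the open point is TOM-1 control replicate 3, and bars are mean ± SD of 3 libraries. MRPL14, MRPL4, MRPL12, MRPS12, MRPS27 and MRPL3 are lower in the treated TOM-1 libraries, and MRPS31 and MRPS18C are higher there. No member was called in RS4;11, though for MRPL4 every treated RS4;11 library lies below every RS4;11 control library.

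TOM-1 control replicate 3 was above both of its fellow control libraries in 69 of 76 members, and the median ratio to their mean was 1.91. Across these 76 members that ratio went with the GC content of the exons (Spearman rho 0.588, Pearson r 0.556). The log2 fold change with ADI-PEG20 in TOM-1 went with GC content in the opposite sense, with rho -0.605 and r -0.622 across members, and rho -0.277 and r -0.206 across 17066 tested genes. Without replicate 3 these were -0.449 and -0.481 across members, and -0.171 and -0.106 across 17985 genes. Transcript length did not go with the change across members, at rho 0.050 and r 0.104. The effect of ADI-PEG20 in the other line, where no member was called, was also lower at higher GC content. With all 12 libraries rho was -0.369 and r -0.444 across members there, and -0.162 and -0.065 across 17066 genes. For TOM-1 over the other line with ADI-PEG20, rho was -0.414 and r -0.462 across members, and -0.099 and -0.038 across genes. Genes are not independent replicates and share libraries, so these are descriptions. In TOM-1 the median GC content was 52.3% for the 36 members that fell and 46.2% for the 39 that were not called. Without replicate 3 it was 40.1% for the 9 that rose. Taking out the trend of each library with GC by offsets left 44 lower and 1 higher of 77 with all 12 libraries, and 41 lower and 6 higher without replicate 3. Under the same offsets the background was 14.4% lower and 16.4% higher, and 18.8% and 21.4% without replicate 3. MRPL41 fell by 0.55 ± 0.19 with the offsets and all 12 libraries. With these offsets MRPS31 was no longer called with all 12 libraries (0.12 ± 0.25, adjusted p = 0.79 by edgeR) and was called without replicate 3 (0.60 ± 0.12). Of the others that rose without replicate 3, MRPL47, MRPS18B and MRPL58 were still called with the offsets, and MRPS18C, MRPS30, MRPS9, MRPS10 and MRPL1 were not. MRPL49 was called higher with the offsets in both fits (0.47 ± 0.14 and 0.39 ± 0.11), and MRPL50 and MRPS22 were called lower in both. The part of GC content in the changes was not tested beyond this.

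**Figure D4:**
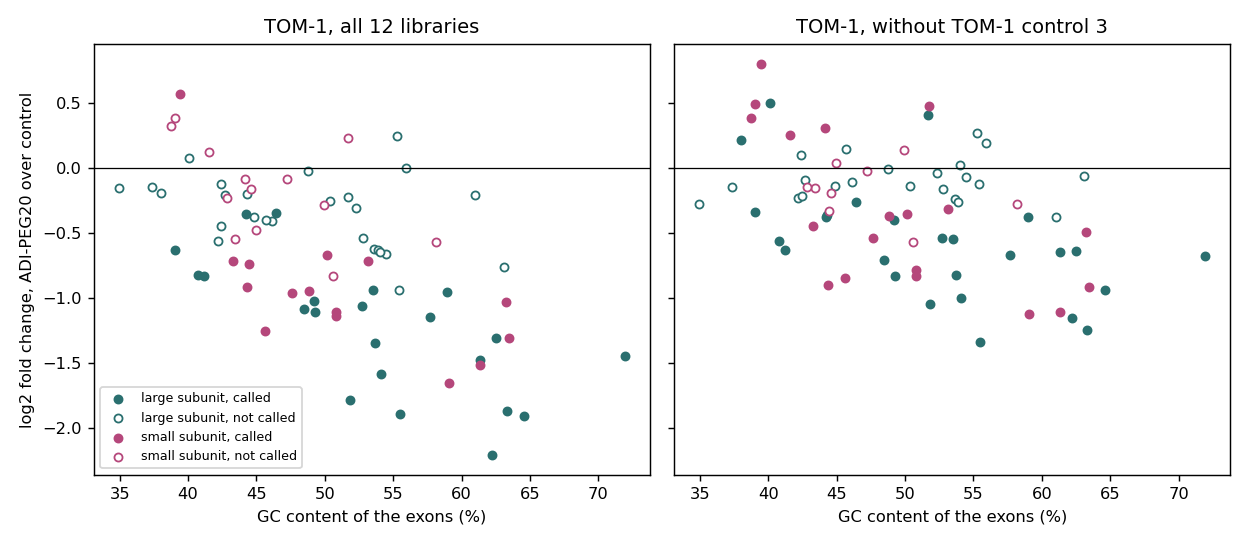
GC content of the exons of 76 members against their log2 fold change with ADI-PEG20 in TOM-1, with all 12 libraries (left) and without TOM-1 control replicate 3 (right); filled points have an adjusted p under 0.05, and colour marks the subunit. The points slope downward in both panels, with Spearman rho -0.605 on the left and -0.449 on the right.

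Other genes of mitochondrial translation were described from lists chosen with these results known. Their counts stand beside the backgrounds given above for TOM-1, 15.9% lower and 15.9% higher with all 12 libraries, and 19.8% and 21.8% without replicate 3. All 13 protein genes of the mitochondrial genome were fitted lower in TOM-1 with ADI-PEG20; 11 fell with all 12 libraries and 13 without replicate 3, with MT-CO3 at -1.17 and MT-ATP6 at -1.10 (-1.04 and -1.24 without it). Of the mitochondrial ribosomal RNAs, MT-RNR1 fell by 0.50 and MT-RNR2 rose by 0.42 (0.34 and 0.39 without replicate 3); both carry only short tails, which poly(A) capture recovers in part. Among 10 translation factors 1 fell and 1 rose, and 2 fell and 2 rose without replicate 3. TUFM, the elongation factor that brings the charged tRNA, fell by 1.64, from 348, 333 and 635 CPM to 141, 141 and 142 CPM, and the initiation factor MTIF2 rose by 0.41; without replicate 3 they were at -1.27 and 0.35. Among 27 assembly and ribosomal RNA factors 12 fell and 3 rose (12 and 6 without replicate 3), TRUB2 (-1.45) and C1QBP (-1.41) the lowest and GTPBP10, a GTPase of large subunit assembly, the highest at 1.58. Without replicate 3 these were -1.12, -1.08 and 1.42. METTL15 was the next highest and rose by 0.73, or by 0.51 without replicate 3. GTPBP10 stood at 29.4, 25.8 and 19.3 CPM in control culture and at 74.6, 71.2 and 77.0 CPM with ADI-PEG20. Of 5 subunits without an MRP symbol 3 fell, or 4 without replicate 3. AURKAIP1, at 92.0, 91.6 and 305 CPM in control culture, fell by 1.73, or by 0.90 without replicate 3. GADD45GIP1, at 64.9, 68.6 and 250 CPM, fell by 1.23, or by 0.30. Of 11 genes of mitochondrial transcription and RNA handling 6 fell and 0 rose (8 and 0 without replicate 3), with SLIRP at -1.80 and the RNA polymerase POLRMT at -0.83, or -1.07 and -0.64 without it. Among 8 tested nuclear regulators MYC fell by 0.66 and NRF1, the factor whose motif was searched, rose by 0.69 (0.61 and 0.67 without replicate 3, where 3 fell and 2 rose). Cytosolic ribosomal protein genes fell in 75 of 80 (median -1.31, or -0.68 without replicate 3, where 74 fell and 1 rose). The members' median thus stood between that of the cytosolic genes and that of all genes in both fits.

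ADI-PEG20 was compared with control in the same way in RS4;11. No member passed, with 0 of 77 called and 0 at an unadjusted p under 0.05 by edgeR, and 0 and 0 by DESeq2; of all tested genes 0.0% were called lower and 0.0% higher. By edgeR 325 of all 17349 tested genes had an unadjusted p under 0.05. The median log2 fold change was -0.12 against 0.00 for all genes, 69 members were fitted lower, and values ran from -0.46 to 0.17. In 26 members every treated library lay below every control library, against a background of 9.05% of tested genes. Without TOM-1 control replicate 3, which enters the estimate of the spread but not this contrast, 22 members had an unadjusted p under 0.05 and all 22 were fitted lower. Of all 18321 genes tested in that fit, 2207 had such a p by edgeR, in either direction. The adjusted p still did not pass, the smallest being 0.065 for MRPS26 (edgeR; 0 called, with backgrounds of 0.115% lower and 0.202% higher). MRPS26 stood at 100, 98.9 and 106 CPM in control culture and at 84.5, 86.2 and 80.2 CPM with ADI-PEG20, without overlap. The members with the smallest unadjusted p with all 12 libraries were MRPL30, at 48.4, 43.0 and 48.3 CPM and then 39.5, 39.6 and 36.7 CPM, and MRPS22, at 38.5, 39.4 and 35.3 CPM and then 31.4, 36.7 and 31.0 CPM. MRPL30 did not overlap between the groups and MRPS22 did, with log2 fold changes of -0.27 ± 0.16 and -0.19 ± 0.12. Large and small subunit medians were -0.11 and -0.15. Of the listed genes of mitochondrial translation, GADD45GIP1 and TUFM were called lower in RS4;11 without TOM-1 control replicate 3. Their log2 fold changes were -0.35 ± 0.07 and -0.25 ± 0.05 (edgeR adjusted p = 0.027 and 0.033). Neither was called in RS4;11 with all 12 libraries. The effect in TOM-1 minus that in RS4;11, without replicate 3, was 0.05 ± 0.10 for GADD45GIP1 and -1.02 ± 0.08 for TUFM.

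The difference between the effects of ADI-PEG20 in the lines was tested as an interaction. With all 12 libraries the effect on 11 members was lower in TOM-1 than in RS4;11 and on 0 it was higher, against backgrounds of 6.05% and 5.89%. By edgeR 30 members had an unadjusted p under 0.05, against 4728 of all 17349 tested genes. The 11 were MRPL4, MRPL11, MRPL14, MRPL16, MRPL24 and MRPL57 of the large subunit and MRPS2, MRPS12, MRPS25, MRPS26 and MRPS27 of the small. MRPL14 differed by -1.68 ± 0.41, MRPL11 by -1.62 ± 0.48 and MRPL4 by -1.61 ± 0.43. Without TOM-1 control replicate 3 the counts were 25 lower and 10 higher, against 14.7% and 15.7%, and the 11 were all among the 25. For MRPL11 and MRPL4 the differences were then -0.88 ± 0.12 and -0.99 ± 0.12, and the lowest of all members was -1.12. The 10 that were higher without replicate 3 included MRPS31 (0.90 ± 0.16), MRPL47 (0.73 ± 0.12) and MRPS18B (0.66 ± 0.10). The count depended on single libraries. It was 23 and 25 without TOM-1 control replicate 1 or 2, all lower. It fell to 1, 2 and 2 without TOM-1 ADI-PEG20 replicate 1, 2 or 3, to 2, 1 and 4 without RS4;11 control replicate 1, 2 or 3, and to 1, 2 and 3 without RS4;11 ADI-PEG20 replicate 1, 2 or 3. For these fits the share of all tested genes called is not given here, so the shifts cannot be read as particular to the members.

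**Figure D5:**
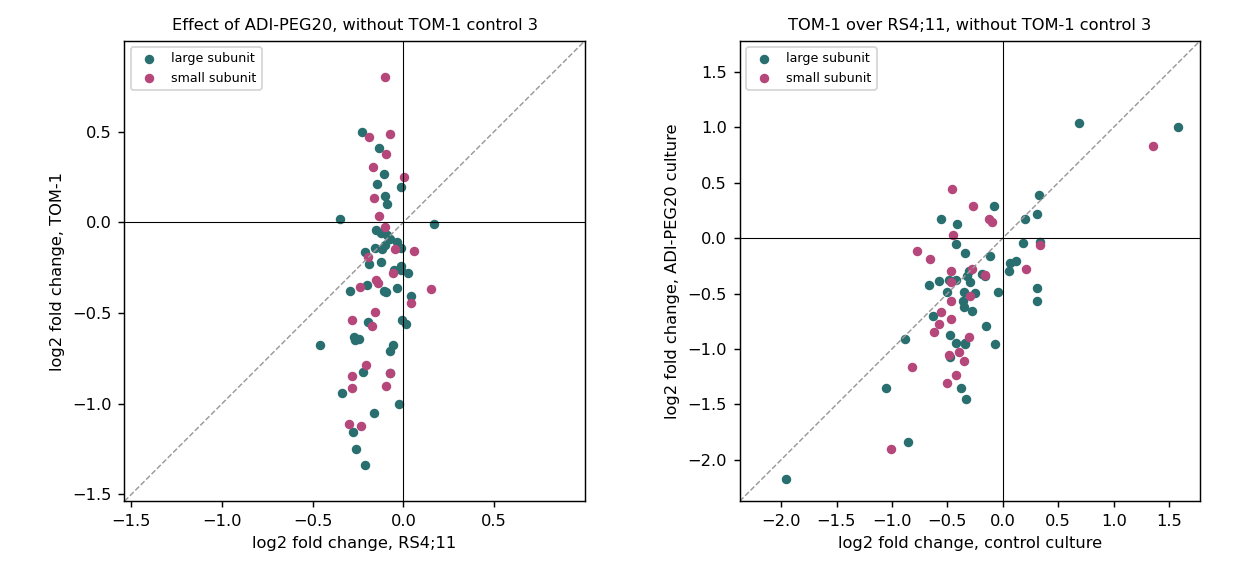
Left, log2 fold change with ADI-PEG20 in RS4;11 against that in TOM-1; right, log2 fold change of TOM-1 over RS4;11 in control culture against that with ADI-PEG20, both for 76 members in the fit without TOM-1 control replicate 3, coloured by subunit, with the dashed line marking equal values. On the left the points spread from -1.34 to 0.80 in TOM-1 and lie between -0.46 and 0.17 in RS4;11.

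The lines were also compared in control culture. With all 12 libraries 7 members were higher and 9 lower in TOM-1 than in RS4;11, against backgrounds of 16.2% and 18.4% of tested genes, and the median difference was -0.02. Without TOM-1 control replicate 3, 7 were higher and 47 lower, against 25.4% and 27.5%, and the median was -0.35 against -0.01 for all genes. All 9 of the lower calls and 6 of the 7 higher calls were kept. In that fit 27 of 48 large and 20 of 29 small subunit genes were lower, with medians of -0.33 and -0.45. The count without RS4;11 control replicate 1, 2 or 3 was 6, 9 and 10, and the share of all tested genes in those fits is not given here.

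MRPL32 and MRPS21 were the members most above RS4;11. MRPL32 stood at 64.5, 54.8 and 95.9 CPM in TOM-1 control and at 19.7, 21 and 19.2 CPM in RS4;11 control, a log2 difference of 1.84 ± 0.19 (edgeR adjusted p = 1.1e-05), or 1.58 ± 0.11 without replicate 3. MRPS21, at 32.8, 37.1 and 87.1 CPM against 11.7, 15.2 and 14.1 CPM, differed by 1.93 ± 0.31, or by 1.35 ± 0.13. Every TOM-1 library was above every RS4;11 library for both. MRPL23, at 30.2, 29.1 and 30.4 CPM in RS4;11 control, was higher in TOM-1 by 1.37 ± 0.44, but by 0.31 ± 0.11 without replicate 3. With all 12 libraries its call was lost without any of the RS4;11 control replicates, RS4;11 ADI-PEG20 replicate 2 or RS4;11 ADI-PEG20 replicate 3 (adjusted p from 0.050 to 0.097).

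MRPL41 and MRPL50, both particular to mitochondria, were the members most below RS4;11. MRPL41, on chromosome 9 from 137551199 to 137552555, plus strand, stood at 11.9, 13.8 and 40.4 CPM in TOM-1 control and at 46.3, 49.7 and 53.7 CPM in RS4;11 control. The difference was -1.19 ± 0.38, or -1.96 ± 0.17 without replicate 3; with all 12 libraries the call was lost without TOM-1 control replicate 1 or 2 or any RS4;11 control replicate (adjusted p from 0.060 to 0.081). MRPL50 stood at 13.8, 13.1 and 10.1 CPM against 26.5, 28 and 28.8 CPM, a difference of -1.17 ± 0.18, or -1.05 ± 0.15. MRPS18B was lower in TOM-1 by 0.53 ± 0.16, or by 0.77 ± 0.07; its call was lost without TOM-1 control replicate 1 or 2 or RS4;11 control replicate 1 or 3 (adjusted p from 0.052 to 0.060).

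With ADI-PEG20 3 members were higher and 30 lower in TOM-1 than in RS4;11, against backgrounds of 23.1% and 24.0%, and the median was -0.42. The higher members were MRPL1, MRPL32 and MRPS21. This contrast uses no control library, but the departing library enters its estimate of the spread: without it 9 were higher and 51 lower, against 31.4% and 31.5%, and the median was again -0.42. MRPL41 stood at 7.96, 10.5 and 5.62 CPM in TOM-1 against 36.2, 37.4 and 35.1 CPM in RS4;11, a difference of -2.17 ± 0.40. MRPS12 differed by -1.90 ± 0.28 and MRPL4 by -1.83 ± 0.31. The comparisons within a line and between lines share libraries, so their counts are not independent.

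Per kilobase of median annotated transcript, the tested members had a median of 56.3 CPM in TOM-1 control (44.5 without replicate 3), 35 in TOM-1 with ADI-PEG20, 51.7 in RS4;11 control and 43.4 in RS4;11 with ADI-PEG20. MRPL3 stood at 165 ± 6.51 CPM per kilobase in TOM-1 control and at 212 ± 8.46 in RS4;11 control (SD, n = 3), among the 5 highest in both. MRPL50, MRPS17 and MRPS24 were the 3 lowest in both control groups. Same-strand genes overlap 27% of the exonic bases of MRPS17. Across 76 members the order of the control levels was much the same in the lines, with a Spearman rho of 0.902 without TOM-1 control replicate 3.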

How the data were processed

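Poly(A) RNA-seq of 12 libraries was used. The authors deposited 1 table, in which each value is the count of reads of an Ensembl gene in a library, with no normalization. Per the submitters' processing notes, STAR, SAMtools, featureCounts and hg38 were used; the annotation release, the use of strand and the handling of shared reads are not given in the sources used here. Gene symbols were looked up by Ensembl identifier (60463 of 60664 matched), and positions, length, GC content and overlaps from GENCODE release 29 on GRCh38, which held 58396. Promoters came from RefSeq on GRCh38.p14.

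The main test was that of edgeR 4.0.16 in R 4.3.3: filterByExpr (17349 genes kept), TMM, a group-means model over all 12 libraries (glmQLFit, glmQLFTest) and Benjamini-Hochberg adjustment at 0.05 over all tested genes, for 5 contrasts. Without TOM-1 control replicate 3, 18321 genes were tested. SE is the size of the log2 fold change divided by the square root of F. CPM values are scaled by TMM. Alternatives were other scalings and filters, DESeq2 1.42.0, limma 3.58.1 (voom with quality weights), a replicate block, length offsets, leaving out each library, and the 6 libraries of a contrast alone; GC offsets (lowess, span 0.3) and both offsets without replicate 3 were added after seeing the data. The test was tested on simulated data, drawn without a departing library and without trends with GC content or length. That run therefore cannot address these.

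The members, lists and rule for named genes were chosen with earlier results of these data known. Named were, per subunit, the 4 lowest and 2 highest in TOM-1, every member called higher there, the 2 with the smallest p in RS4;11, up to 3 per direction for the line difference in control culture and for the difference of effects, and 13 members named whatever their values. Genes of other lists were named where called in TOM-1 and among the 2 with the largest change of their list in a direction.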

Additional observations from a re-analysis of the deposited data

Results flagged for a closer look

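The effect of ADI-PEG20 differed between the lines, by the interaction test over all 12 libraries (edgeR, adjusted p under 0.05), in 11 members, in each of which it was lower in TOM-1 than in RS4;11. As log2 differences these were -1.68 for MRPL14, -1.62 for MRPL11, -1.61 for MRPL4, -1.56 for MRPL24 and -1.42 for MRPS12. They were -1.21 for MRPS2, -1.07 for MRPS25, -1.04 for MRPL16, -1.03 for MRPS26, -1.01 for MRPL57 and -0.82 for MRPS27. Without TOM-1 control replicate 3 all 11 were still called, among 25 lower and 10 higher. MRPL11 and MRPL4 were then at -0.88 and -0.99, and the lowest of all members at -1.12. The median difference of the members was -0.56 with all 12 libraries and -0.21 without replicate 3. The backgrounds were 6.05% lower and 5.89% higher with all 12 libraries, and 14.7% and 15.7% without that one. With the replicate block 7 members were called, and leaving out any treated TOM-1 library or any RS4;11 library left 1 to 4. The share of all tested genes called in those fits is not given here. MRPS27 had the smallest adjusted p (0.0032), and replicate 3 did not stand apart for it; MRPS26 was nearest the threshold (0.0499).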

How the results depend on the processing

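The limits are the spread of 3 libraries a group and TOM-1 control replicate 3, without which values are given beside most results. In RS4;11 the count of called members was 0 under all 24 alternatives. Fitted on the 6 libraries of the contrast alone, the TOM-1 count was 16 (16 lower), the line difference in control culture 5, and that with ADI-PEG20 61. The fits that leave out a library gave 26 to 48 in TOM-1, 1 to 35 for the difference of effects, 6 to 54 in control culture, 27 to 60 with ADI-PEG20 and 0 to 0 in RS4;11, and a large minus small median from 0.0044 to 0.0467. The difference of effects had 20 calls with no filter, 19 with the DESeq2 Wald test, 37 with voom quality weights, 32 with GC offsets and 36 with length offsets, the last pair without TOM-1 control replicate 3. In control culture voom gave 56, GC offsets without replicate 3 gave 56 and length offsets without it 57; with ADI-PEG20 these were 63, 60 and 58. The large minus small median was -0.0453 with length offsets, -0.0805 with GC offsets without replicate 3 and -0.0265 with length offsets without it, and 0.0896 with MRPS18A and MRPS30 counted as large. MRPL58 in TOM-1 ran from -0.52 to 0.41 when a library was left out, and reversed to 0.41 without replicate 3, 0.40 with voom, 0.45 with GC offsets and 0.43 with length offsets, both without replicate 3. The cause of these shifts was not tested. For most alternatives the share of all tested genes called is not given here. Changes in the counts therefore cannot be read as particular to the members.

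With the replicate number as a block the difference of effects had 7 calls and the TOM-1 contrast 34 lower and 1 higher. Deviations of same-numbered libraries correlated between -0.062 and -0.012 in TOM-1 and between 0.031 and 0.14 in RS4;11. Pairs with different numbers ran from -0.053 to 0.070 in TOM-1 and from -0.095 to 0.055 in RS4;11. Not every library correlated best with its own number. Deviations within a group are not independent of each other, so these values cannot settle whether same-numbered libraries were paired. The labels give only the number.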
